A study of Mus musculus with 20 samples.

Results

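The 26S proteasome degrades ubiquitin-tagged proteins. Its genes were described here in mouse embryonic stem cells (ESCs) and in preimplantation embryos in which the transcription factor Klf5 had been raised or lowered. All protein-coding genes whose symbol begins with Psm, a letter from a to g and a digit were taken, which gave 50 of the 30265 genes in each count table. A further 4 genes matched the pattern but were not protein-coding. The genes were selected on their symbols alone, with no measured value in the rule, but the family was taken up with results of both comparisons known, so counts over its members are given as descriptions beside the counts over all genes.

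ESCs derived from C57BL/6J mice overexpressed GFP (2 libraries) or Klf5 (2 libraries), and all 4 were grown with LIF on irradiated mouse embryonic fibroblast feeders. Single embryos at embryonic day 4.5, which the labels trace to "C57BL/5J" mice, had been injected with scramble siRNA (10 libraries) or with siRNA to Klf5 (6 libraries) and cultured in KSOM medium. Polyadenylated RNA was sequenced in every library, with one cDNA kit for ESCs and another for embryos, so the levels of ESCs and embryos stand side by side with no test. The numbers in the embryo library names are lower in the scramble group than in the Klf5 siRNA group without overlap, so any effect of that order cannot be told apart from the siRNA.

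The 20S core is a barrel of 2 alpha rings and 2 beta rings, and the beta subunits Psmb6 (caspase-like), Psmb7 (trypsin-like) and Psmb5 (chymotrypsin-like) hold its active sites. Immune signals replace them with Psmb9, Psmb10 and Psmb8, which alters the peptides made for MHC class I. The 19S cap binds, unfolds and feeds in ubiquitinated proteins through a base with an ATPase ring and a lid, other activators (Psme) open the core without ATP, and dedicated chaperones assemble the parts. Proteasome genes are known to be induced together by the transcription factor Nfe2l1 through antioxidant response elements. By role, the members comprised 7 alpha and 7 beta genes of the standard core, 3 immunoproteasome genes, 2 genes of tissue-restricted cores (Psma8 of testis and Psmb11 of thymus), 6 cap ATPases, 3 other cap base genes, 8 lid genes, 5 activator genes, the inhibitor Psmf1 and 7 assembly factors. Psmc3ip fits the symbol pattern but encodes a meiotic recombination factor, and was kept apart.

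RefSeq promoters (GRCm38.p6, the mm10 assembly) were found for 42 of the 50 genes. The 250 bases before the start of Psma5 and of Psmb6 are shown because these 2 core genes had the largest fitted rise of their rings in embryos; capitals mark the antioxidant response element TGACNNNGC, searched on both strands.
Psma5, chr3:108256676-108256925, plus strand: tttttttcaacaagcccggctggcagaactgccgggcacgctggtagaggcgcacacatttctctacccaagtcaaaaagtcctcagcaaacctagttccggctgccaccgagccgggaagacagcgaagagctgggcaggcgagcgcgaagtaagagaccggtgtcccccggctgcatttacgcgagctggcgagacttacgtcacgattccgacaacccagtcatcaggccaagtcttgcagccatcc
Psmb6, chr11:70525107-70525356, plus strand: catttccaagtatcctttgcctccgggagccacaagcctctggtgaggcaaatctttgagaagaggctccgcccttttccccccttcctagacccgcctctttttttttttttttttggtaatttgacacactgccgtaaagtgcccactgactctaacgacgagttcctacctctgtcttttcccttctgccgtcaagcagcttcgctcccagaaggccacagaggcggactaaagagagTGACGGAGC
The element was found at the end of the Psmb6 stretch and not in that of Psma5. The shorter windows around it in 3 other members are given for comparison with the Psmb6 match, each written along its gene's strand, with the match on the reverse strand for Psmc6.
Psmb5, chr14:54618024-54618052, minus strand: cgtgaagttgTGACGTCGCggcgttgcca
Psmc6, chr14:45329587-45329615, plus strand: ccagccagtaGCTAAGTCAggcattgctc
Psmd9, chr5:123228149-123228177, plus strand: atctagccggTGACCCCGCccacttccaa
Over windows of 300 bases, the element lay in 6 of 45 member promoters (13.3%) and in 12.4% of all 32851 promoters. The matches in Psmd12 and Psme4 are not shown. In embryos Psmb6, Psmb5 and Psmc6 rose. Psmd9, Psmd12 and Psme4 did not pass the test described below, with log2 fold changes of 0.38, 0.20 and -0.29. The Kruppel-like motif GGGNGTGG, also searched on both strands, lay in 7 of 45 member promoters (15.6%) and in 17.6% of all. Its single match in a core promoter was upstream of Psma1, on the reverse strand, and is shown in capitals.
Psma1, chr7:114276249-114276276, minus strand: tgacgtgaagCCACGCCCcccgctttct
Both shares lay near those of all promoters, and a match is a run of letters, not a measured binding site.

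Library totals were 26775554 to 37482730 estimated counts in ESCs and 14701630 to 24939712 in embryos. Klf5 stood at 881 to 942 CPM (a gene's count relative to the scaled total of its library) in Klf5 ESCs against 70.8 to 80.4 in GFP ESCs, and at 80.6 to 543 CPM in Klf5 siRNA embryos against 381 to 591 in scramble embryos, so the embryo groups overlapped. Klf5 siRNA embryo 1 was the library at 543 CPM. Scramble embryos 5 and 6 stood apart: they had the most counts of the embryos and the lowest mitochondrial shares of the scramble group (4.34% and 5.48%, others 8.04% to 18.5%). The mitochondrial share was 2.45% to 10.3% in Klf5 siRNA embryos, and counts in cytosolic ribosomal protein genes made up 7.89% to 14.3% there against 3.87% to 9.38% in scramble embryos. Of all 12385 genes tested in embryos, 12.0% rose and 7.74% fell (edgeR adjusted p under 0.05). Of 14 trophectoderm markers 8 fell and 1 rose in Klf5 siRNA embryos. Their summed level was 613 to 9991 CPM against 4575 to 10204 CPM, and no marker was at 0 in every library. Of 10 primitive endoderm markers 2 fell (Sox17 and Pdgfra) and none rose, with a summed level of 241 to 530.1 CPM against 446 to 758 CPM. Of 12 inner cell mass and pluripotency markers 1 rose and 1 fell, near the shares over all genes. Their summed level was 6121 to 16872 CPM against 3591 to 11656 CPM. The part of these differences in the proteasome values was not tested. In whole embryos and cultures, fewer cells of a type and less RNA per cell cannot be told apart.

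Of the core, cap, assembly and activator genes, the core had the largest difference between the embryo groups. The geometric mean over the 14 standard core genes, in CPM per kilobase of median transcript length, was 102 in GFP ESCs (100.1 and 104) and 92.3 in Klf5 ESCs (97.2 and 87.6). In scramble embryos it was 498 (lowest 301, median 530.3, highest 659), and in Klf5 siRNA embryos 1202 (lowest 1055, median 1193, highest 1383). Every Klf5 siRNA embryo lay above every scramble embryo, including embryo 1, whose Klf5 level was within the scramble range and whose core level was the lowest of its group. A relation of core level to residual Klf5 was not tested. The 17 cap genes had a level of 84.9 in GFP ESCs, 81.2 in Klf5 ESCs, 110 in scramble embryos (68.8 to 249) and 157 in Klf5 siRNA embryos (127 to 209), with the embryo groups overlapping. Scramble embryos 5 and 6 held the 2 highest cap levels of all libraries, 249 and 217, while the other scramble embryos lay between 68.8 and 131.

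**Figure D1:**
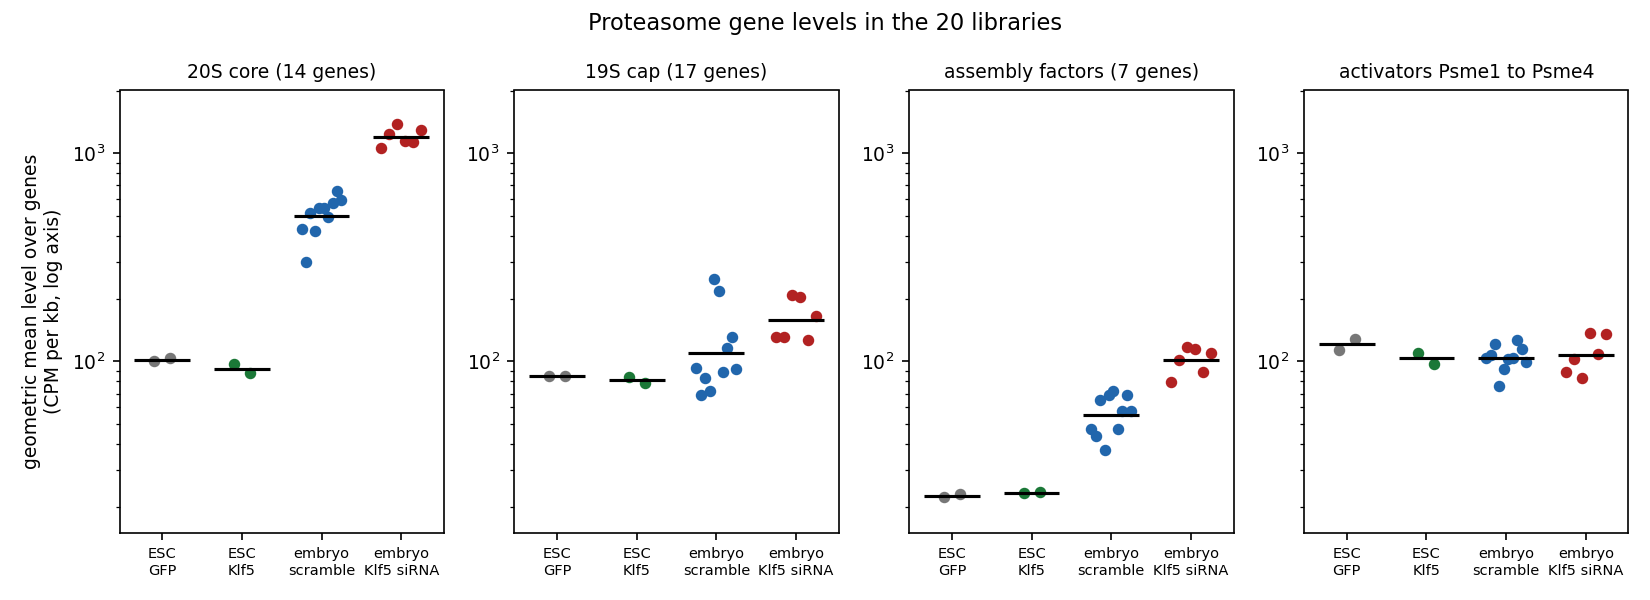
Geometric mean level of 4 groups of proteasome genes in each of the 20 libraries (points, CPM per kilobase of median transcript length, log axis) with the mean of each group on the log scale (bars). Core levels of the 6 Klf5 siRNA embryos (1055 to 1383) lie above those of the 10 scramble embryos (301 to 659), whereas cap and activator levels overlap.

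The ratio of core to cap level was 1.20 in GFP ESCs (1.17 and 1.23) and 1.14 in Klf5 ESCs (1.16 and 1.12). It was 4.54 in scramble embryos (2.20 to 6.49) and 7.64 in Klf5 siRNA embryos (5.61 to 9.46). ESCs and embryos differed in cDNA kit, so in these ratios any effect of the kit cannot be told apart from that of the cells. The lowest scramble ratios, 2.20 and 2.52, were those of embryos 5 and 6. With the longest transcript as the length, the 4 ratios were 1.35, 1.28, 5.09 and 8.57, in the same order of groups. The median transcript is far shorter than the longest for Psme4 (657 against 6491 bases), Psmd2 (659 against 2961) and Psmd11 (716.5 against 2848), so their levels per kilobase depend on that choice. Assembly factors had a level of 22.6, 23.3, 55.5 and 101 in GFP ESCs, Klf5 ESCs, scramble embryos and Klf5 siRNA embryos, and Psme1 to Psme4 had a level of 120.5, 103, 103 and 107.

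Core genes did not stand at equal levels within a group. In GFP ESCs they spanned 27.5-fold per kilobase, from Psma2 at 15.3 ± 0.263 to Psmb6 at 422 ± 18.2 (SD, n = 2), and in scramble embryos 27.7-fold, from Psmb7 at 62.4 ± 20.7 to Psmb3 at 1728 ± 575 (SD, n = 10). Cap genes in GFP ESCs ran from Psmc6 at 10.8 ± 2.31 to Psmd2 at 443 ± 14.2 (SD, n = 2), a span of 41.0-fold. With the longest transcript the highest cap gene was Psmd3, at 227 against 98.5 for Psmd2, with Psmc6 still the lowest, so the span was narrower. Psmb7 was the core gene whose level in scramble embryos came closest to that in ESCs, at 62.4 against 68.0 in GFP ESCs, while Psma2 stood at 204 against 15.3.

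**Figure D2:**
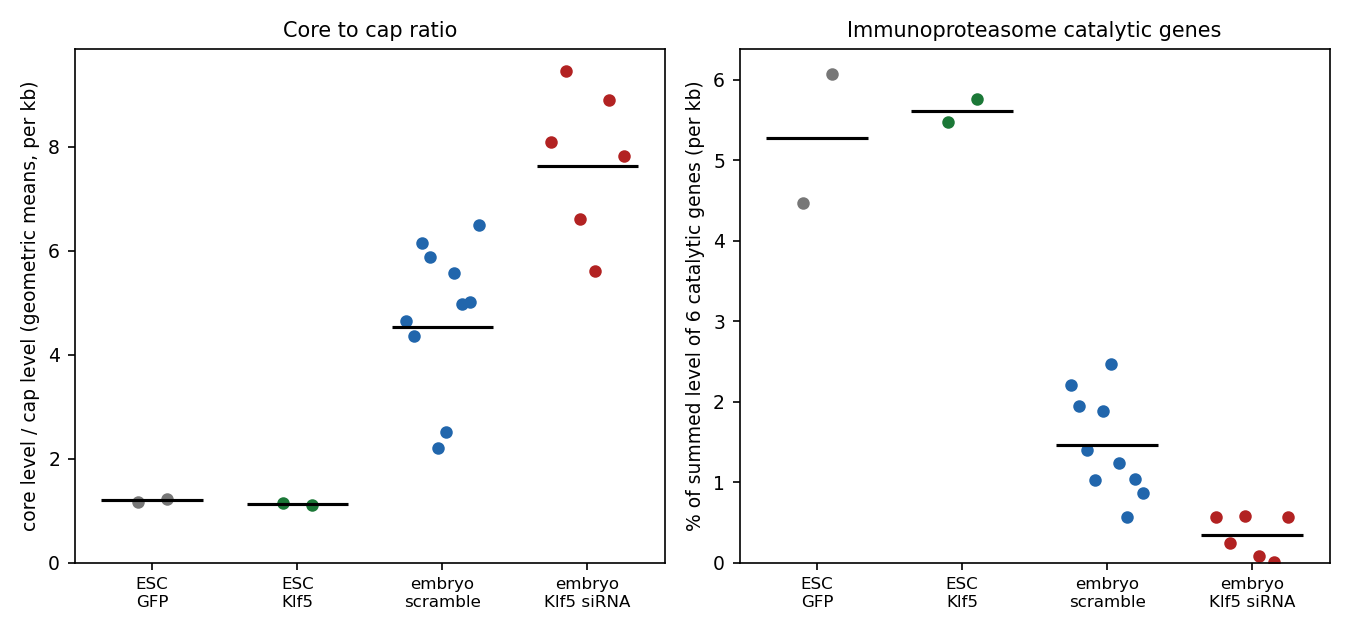
Left, ratio of the core to the cap level in each of the 20 libraries; right, share of the immunoproteasome genes Psmb8, Psmb9 and Psmb10 in the summed level of the 6 catalytic genes; bars are group means (left, on the log scale). The ratio runs from 1.12 to 1.23 in ESCs and from 2.20 to 9.46 in embryos, and the immunoproteasome share is highest in ESCs.

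Relative to the scaled library totals, nearly all core genes stood higher in Klf5 siRNA than in scramble embryos. Amounts of RNA per embryo were not measured. Of the 14 standard core genes 13 rose, with a median log2 fold change of 1.28, and 11 did so without overlap between the groups. Among all 12385 genes tested, 19.8% changed, 12.0% rose and 7.74% fell (edgeR quasi-likelihood test, Benjamini-Hochberg adjusted p under 0.05), and 2.90% were higher and 1.91% lower without overlap. The median log2 fold change over all genes tested was -0.01. Over all 50 members, 47 passed the filter on low counts, 22 rose and none fell, with a median of 0.74. With an unadjusted p under 0.05, 27 members were higher and 0 lower (33.2% of all genes tested, both directions), and DESeq2 and limma voom called 0 lower.

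Among the alpha genes, which form the outer rings and the gate of the barrel, Psma5 stood at 152 to 500.4 CPM in scramble embryos (median 368) and at 842 to 1621 CPM in Klf5 siRNA embryos (median 986). The groups did not overlap. Its log2 fold change was 1.64 ± 0.24 (SE), with an edgeR adjusted p of 0.000197. Psma2 stood at 271 to 585 CPM (median 449) against 926 to 1549 CPM (median 1258), again without overlap, a log2 fold change of 1.54 ± 0.19. Psma6, Psma4, Psma1 and Psma7 rose by 1.23, 1.05, 1.03 and 1.06, and only Psma7 among these 4 had overlapping groups. Psma3 was the core gene that did not pass the test, at 707 to 2118 CPM (median 1312) in scramble and 1178 to 2843 CPM (median 2004) in Klf5 siRNA embryos, a log2 fold change of 0.56 ± 0.24 with an adjusted p of 0.113.

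All 7 standard beta genes rose. Psmb6, the caspase-like subunit, stood at 464 to 1304 CPM in scramble embryos (median 889) and at 2041 to 3439 CPM in Klf5 siRNA embryos (median 2647). The 2 ranges were apart, with a log2 fold change of 1.61 ± 0.23 and an edgeR adjusted p of 0.000138. Psmb7, the trypsin-like subunit, stood at 38.9 to 122 CPM (median 71.1) against 132 to 307 CPM (median 190.0), a log2 fold change of 1.43 ± 0.24 with an adjusted p of 0.000551. Psmb5, the chymotrypsin-like subunit, had the smallest rise of the ring. It stood at 250 to 832 CPM (median 420) against 605 to 1029 CPM (median 745), so the groups overlapped, and its log2 fold change was 0.74 ± 0.25 with an adjusted p of 0.0381. Its call was lost in 10 of the 16 fits that left out 1 embryo, those without scramble embryos 1, 2, 3, 4, 7, 8 or 10 or Klf5 siRNA embryos 3, 4 or 6, with an adjusted p of at most 0.102. The non-catalytic Psmb1, Psmb3, Psmb2 and Psmb4 rose by 1.49, 1.38, 1.33 and 1.21, all without overlap.

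**Figure D3:**
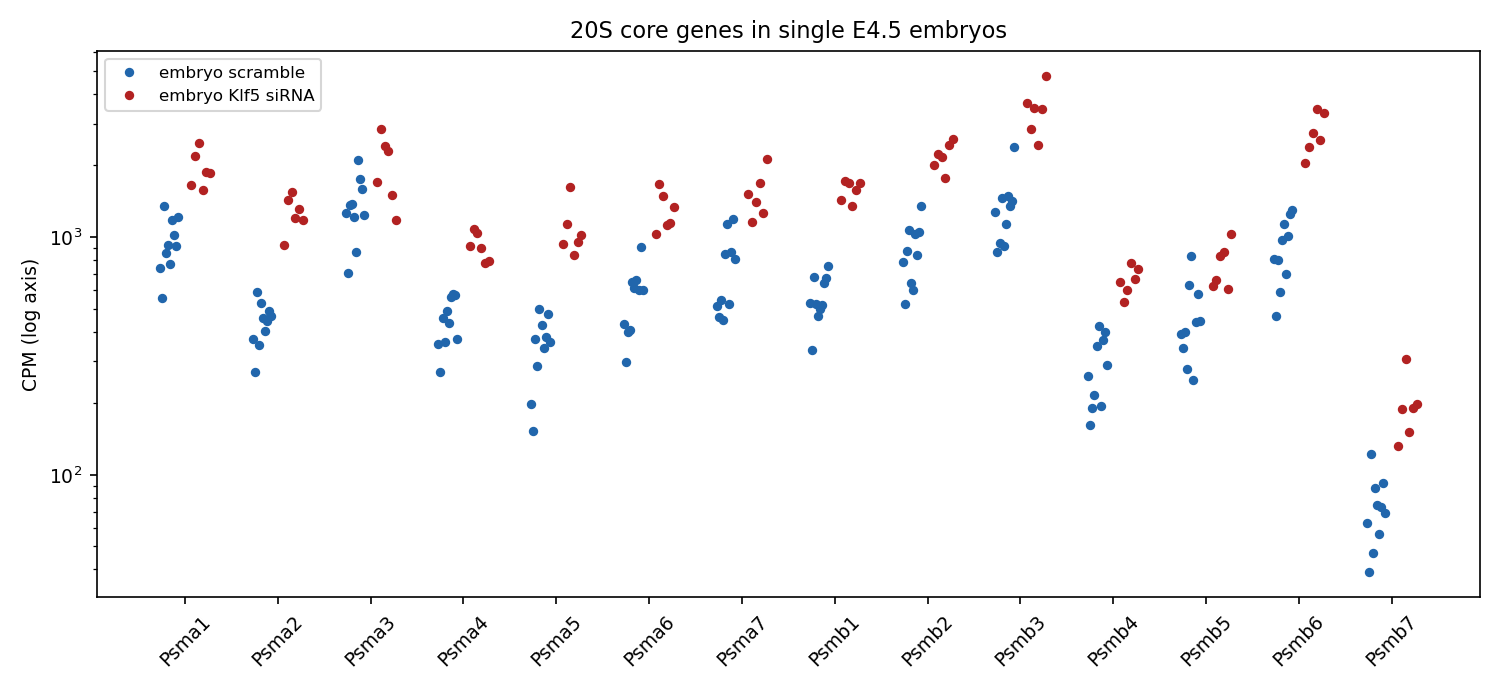
CPM (log axis) of the 14 standard core genes in the 10 scramble embryos and the 6 Klf5 siRNA embryos, each point 1 embryo. The groups separate for 11 genes and overlap for Psma3, Psma7 and Psmb5.

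Cap genes moved less uniformly. Of the 17, 4 rose and none without overlap, with a median log2 fold change of 0.34, and 11 had a fitted change above 0 (49.8% of all genes tested did). The ATPase Psmc6 stood at 93.4 to 277 CPM in scramble embryos (median 143) and at 204 to 672 CPM in Klf5 siRNA embryos (median 408). Although the ranges overlapped, all 6 Klf5 siRNA embryos lay above the scramble mean, and the log2 fold change was 1.40 ± 0.28 with an edgeR adjusted p of 0.00182. The call of Psmc6 was lost in the fit of 12 embryos with a replicate block (1.28, adjusted p 0.0596). The lid genes Psmd8, Psmd11 and Psmd6 rose by 1.11, 1.09 and 0.90 on the log2 scale. Psmd11 was lost without Klf5 siRNA embryo 3, at an adjusted p of 0.0854. The other 5 ATPases ran from -0.11 ± 0.33 (Psmc3) to 0.83 ± 0.39 (Psmc2), and the scaffold genes Psmd1 and Psmd2 of the base had -0.09 ± 0.24 and -0.32 ± 0.28, none past the threshold. Psmd4, a ubiquitin receptor, had 0.65 ± 0.39 and Psmd14, the deubiquitinase of the lid, -0.14 ± 0.27, with adjusted p of 0.25 and 0.759.

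The cap values depended on the libraries that stood apart. Without scramble embryos 5 and 6, 9 of 17 cap genes rose and their median was 0.89, while 13 of 14 core genes rose. In that fit 1536 of all 12002 genes tested rose and 1176 fell. Leaving out scramble embryo 5, scramble embryo 6 or Klf5 siRNA embryo 4 alone gave a cap median of 0.60, 0.55 or 0.21. Psmc2 rose without scramble embryo 5 (1.13) and Psmd7, the partner of Psmd14, without embryo 5 or embryo 6. With the mitochondrial share as a covariate, the cap median was -0.34 and 1 cap gene rose while 3 (Psmc3, Psmd2 and Psmd3) fell, whereas 11 of 14 core genes still rose. Of all 12385 genes tested with that covariate, 1230 rose and 912 fell. With total counts in place of TMM scaling, 11 core genes and 1 cap gene rose, where 745 of all genes tested rose and 2182 fell.

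**Figure D4:**
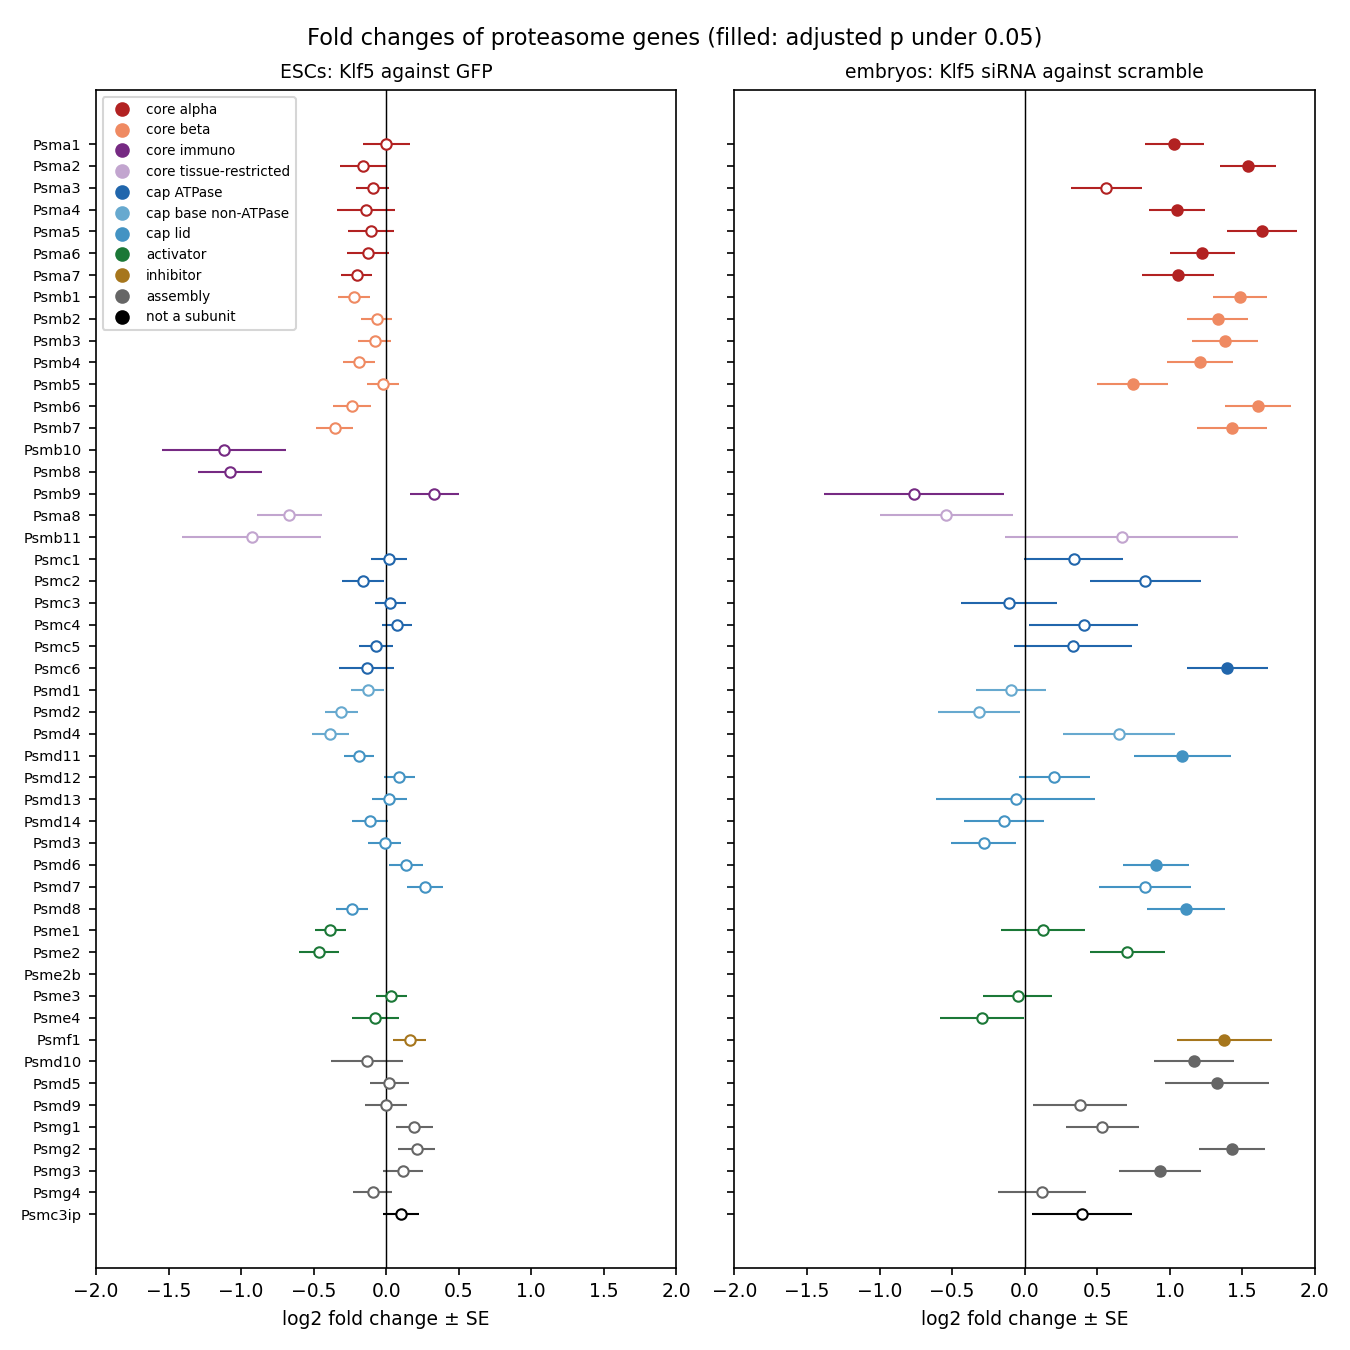
Log2 fold change ± SE of each member tested, by role, in ESCs (Klf5 against GFP, left) and embryos (Klf5 siRNA against scramble, right); filled points have an edgeR adjusted p under 0.05. In embryos 13 of 14 standard core genes and 4 of 17 cap genes are filled, and in ESCs none is.

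Assembly factors rose in 4 of 7 cases. Psmg2, which with Psmg1 starts the alpha ring, stood at 88.2 to 152 CPM in scramble embryos (median 126) and at 195 to 586 CPM in Klf5 siRNA embryos (median 271), with no overlap. Its log2 fold change was 1.43 ± 0.23 with an edgeR adjusted p of 0.000322. Psmg1 itself had 0.54 ± 0.25 (adjusted p 0.143), Psmg3 rose by 0.93 ± 0.28 and its partner Psmg4 had 0.12 ± 0.30. The call of Psmg3 was lost without Klf5 siRNA embryo 1 or 4, at an adjusted p of at most 0.0945. Of the chaperones of the cap base, Psmd5 and Psmd10 rose by 1.32 ± 0.36 and 1.17 ± 0.28, and Psmd9 had 0.38 ± 0.33 (adjusted p 0.443). With the mitochondrial covariate or with total counts, 1 of 7 assembly factors rose: Psmd5 (0.64 and 0.88), Psmd10 (0.74 and 0.74) and Psmg3 (0.45 and 0.49) lost their calls. Psmf1, which encodes the inhibitor PI31, stood at 26.7 to 91.2 CPM (median 40.7) against 57.6 to 231 CPM (median 104) and rose by 1.38 ± 0.33 with an adjusted p of 0.0059. Its call was lost with the mitochondrial covariate (0.61, adjusted p 0.209) and with total counts (0.92, adjusted p 0.071). The call was also lost on 12 embryos with a replicate block (1.20, adjusted p 0.108) and without the block (1.25, adjusted p 0.0597).

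None of the 4 activator genes tested passed the threshold in embryos. Psme2, which with Psme1 forms the interferon-inducible 11S ring, had 0.71 ± 0.26 on the log2 scale (adjusted p 0.0585), and Psme1 had 0.13 ± 0.29. Psme2 passed without scramble embryo 6 or 9 or Klf5 siRNA embryo 2 or 3, with an adjusted p of 0.0277 at the lowest. Psme3 of the nuclear 11S ring had -0.05 ± 0.24 and Psme4, the single-chain activator PA200, -0.29 ± 0.29. Psme2b, a near-identical copy of Psme2 with which reads may be shared, stood at 1.15 CPM or less in all 20 libraries and did not pass the filter.

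Immunoproteasome genes were barely detected in embryos except Psmb9. Psmb8 was at 0 in 4 of 10 scramble and 2 of 6 Klf5 siRNA embryos and at most 1.15 CPM, and Psmb10 was at 0 in 7 of 10 and 5 of 6 and at most 1.73 CPM; 3 counts correspond to 0.12 to 0.204 CPM in the embryo libraries. Psmb9 stood at 5.67 to 34.3 CPM in scramble embryos (median 11.2) and at 0.0671 to 17.0 CPM in Klf5 siRNA embryos (median 7.81), and its difference did not pass the test (-0.76 ± 0.62, adjusted p 0.42). The 3 genes together made up 1.46% ± 0.63 of the summed level of the 6 catalytic genes in scramble embryos and 0.34% ± 0.26 in Klf5 siRNA embryos (SD, n = 10 and 6), with standard catalytic genes that rose in the denominator. In GFP and Klf5 ESCs the share was 5.27% and 5.62%. With the longest transcript as the length it was 2.83% and 2.73% in ESCs, and 0.62% and 0.14% in scramble and Klf5 siRNA embryos.

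In ESCs Klf5 overexpression gave no proteasome gene past the threshold. None of the 49 members tested rose or fell by the edgeR quasi-likelihood test, against 2.78% of all 15968 genes tested (1.67% higher, 1.11% lower). With an unadjusted p under 0.05, 8 members were lower and 0 higher (23.2% of all genes tested), while DESeq2 called 2 lower (Psmb8 and Psme1) and limma voom none. The median log2 fold change was -0.09 over the members, -0.13 over the core and -0.07 over the cap, and 17 of 49 members had a fitted change above 0 (49.6% of all genes tested did). Between 2 libraries each, 9 members were higher and 17 lower without overlap, where 29.0% and 27.5% of all genes tested were. This fit had 2 residual degrees of freedom and made 444 calls over all genes. Without GFP library 1 it made 1 call.

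The lowest adjusted p in ESCs was that of Psmb8, at 9.78 and 12.1 CPM in GFP ESCs and at 4.54 and 5.85 CPM in Klf5 ESCs. Both Klf5 libraries lay below both GFP libraries, with a log2 fold change of -1.08 ± 0.22 and an adjusted p of 0.0539. It passed without Klf5 library 2, at 0.0331. Psmb10 was at 4.23 and 8.79 CPM against 3.86 and 2.18 CPM (-1.12 ± 0.43, adjusted p 0.186), and Psmb9 at 14.3 and 18.0 CPM against 19.2 and 21.6 CPM (0.33 ± 0.17, adjusted p 0.279). Psmb8 and Psmb9 are neighbours on chromosome 17. Psme1 and Psme2, neighbours on chromosome 14, had -0.39 ± 0.11 and -0.47 ± 0.14 (adjusted p 0.0959 and 0.107). Of all genes tested in ESCs, 1.67% rose and 1.11% fell. Of 10 leukocyte markers, which the feeders or ESCs could bring, 7 were tested and none passed the threshold. All 10 had a summed level of 58.7 to 63.4 CPM in Klf5 ESCs against 71.0 to 86.2 CPM in GFP ESCs. Of 16 fibroblast markers 15 were tested and 1 rose (Col1a2). All 16 had a summed level of 3166 to 3447 CPM against 3064 to 3123 CPM. Of 10 primitive endoderm markers 4 rose (Sox7, Hnf4a, Cubn and Dab2), with a summed level of 1175 to 3255 CPM against 735 to 1086 CPM. Of 12 inner cell mass and pluripotency markers 2 rose and none fell. Their summed level was 7126 to 7695 CPM against 6191 to 6329 CPM. Of 14 trophectoderm markers 13 were tested, and 1 fell and none rose. Their summed level was 1859 to 2506 CPM against 2129 to 3901 CPM. The part of feeder cells or of other cell types in these values was not tested.

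Transcript length moved with the embryo fold changes of all genes. The median log2 fold change went from 0.54 in the decile of the shortest transcripts to -0.33 in decile 9 of 10. Across genes, which are not independent replicates and share the same libraries, Spearman's rho of fold change and median length was -0.27 over 12306 genes. Over the 47 members it was 0.18 with median and -0.24 with longest length. When the trend of each library with length was taken out by an offset, the core median was 1.00, 12 of 14 core genes rose and Psmb5, Psmd11 and Psmg3 no longer passed. The median of all genes then moved to 0.10. Relative to it the core stood at 0.90 and the cap at 0.26, against 1.28 and 0.34 in the main fit. Cap genes that rose numbered 5, against 4 in the main fit, with Psmc2 and Psmd7 gained. Over all genes, 1493 rose and 755 fell, against 1489 and 958.

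**Figure D5:**
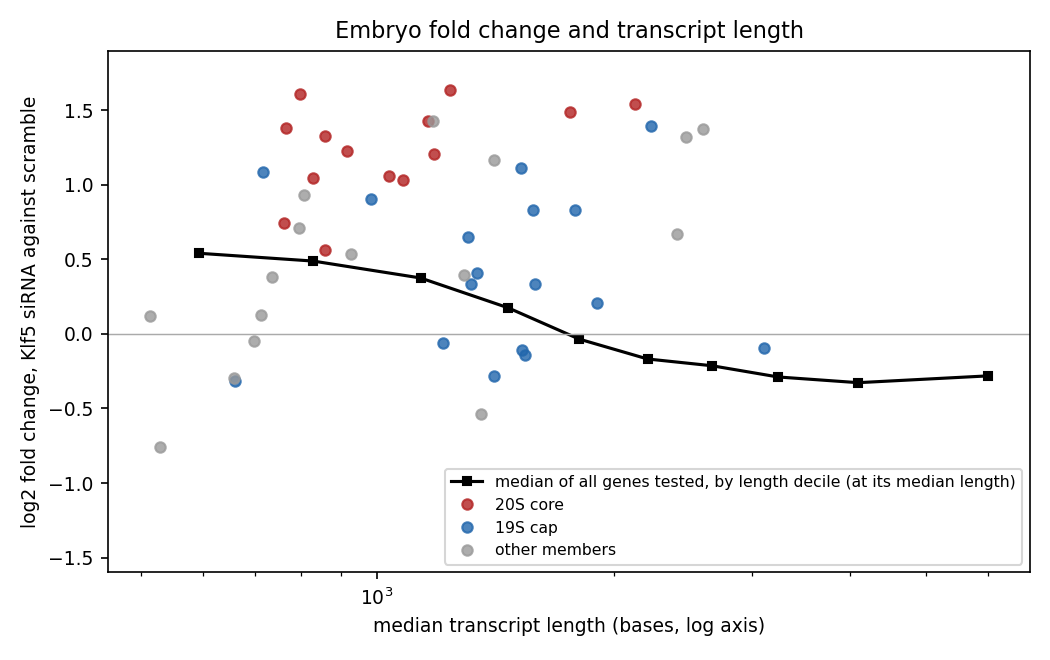
Log2 fold change in embryos against median transcript length (log axis) for the members tested (circles) and the median over all genes tested in each decile of length (squares, placed at the decile's median length). The 14 core genes lie above the line of medians, which runs from 0.54 to -0.33.

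Genes that work beside the proteasome were described in the same fits, where 12.0% of all genes tested in embryos rose and 7.74% fell. Of 18 partner genes tested in embryos 2 rose, the lid component Sem1 (1.47) and the core maturation factor Pomp (1.23), and none fell. Of 15 genes of the Nfe2l1 pathway, Ufd1, which serves Vcp in extracting ubiquitinated proteins, rose by 1.39 and the repressor Bach1 fell by 1.15, while Nfe2l1 itself had -0.19 (adjusted p 0.669). Among the genes for ubiquitin supply and activation, the conjugating enzymes Ube2n (1.17), Ube2c (1.11) and Ube2l3 (1.07) rose. None of 7 genes of the CCT chaperonin, a folding machine of similar build, passed (median -0.37, with 1 at an unadjusted p under 0.05), and 2 of 10 genes of the COP9 signalosome, whose subunits are related to the lid, rose (Cops6 1.03, Cops3 0.90). Of 8 genes of MHC class I antigen processing tested 1 rose (B2m, 1.82). For scale, 57 of 83 cytosolic ribosomal protein genes tested rose (median 1.07) and 49 of 77 mitochondrial ribosomal protein genes rose (median 0.98). In ESCs, of 76 genes tested in these 6 proteasome-related lists, 1 rose (Keap1, 0.93) and 1 fell (B2m, -0.73), where 1.67% of all genes rose and 1.11% fell. These counts in ESCs, and in embryos those of the partner and MHC class I lists, lie near the shares over all genes.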

How the data were processed

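The authors deposited estimated counts (expected counts) per Ensembl gene, not normalized. The submitters' processing notes name kallisto 0.46 and the build mm10; the annotation release, the step from transcripts to genes and any separation of feeder reads are not given in the sources used here. Identifiers were matched to GENCODE M21 (GRCm38, the assembly of mm10), which gave 29831 of 30265 genes a symbol. Counts were rounded, filtered with filterByExpr (lowest count 10) and TMM-scaled, and groups were compared by the robust quasi-likelihood F test of edgeR 4.0.16, separately for ESCs (2 against 2) and embryos (6 against 10), with Benjamini-Hochberg adjustment over all genes tested and a threshold of 0.05. Fold changes are fitted values. CPM use TMM-scaled library sizes, and levels per kilobase divide them by the median length of a gene's protein-coding transcripts. Levels of a gene group are geometric means of these values, with nothing added before logs. Only the correlations of same-numbered libraries and the spread used to judge moved medians had 1 CPM added before logs. A floor of 3 counts covers counting error only. Whether ESC replicates were separate cultures is not given, so their p-values measure only the spread between these libraries. Alternatives used DESeq2 1.42.0 and limma 3.58.1, other scalings, no filter, a test against a 1.5-fold change, a length offset (lowess span 0.3), left-out libraries, a mitochondrial covariate and a replicate block. Scaling by total counts and a crossed pairing of ESC replicates were added after seeing the data. The fits were tested on simulated data. Libraries of a group differed by a chi-square of at least 21.1 per degree of freedom, so no library was counted as a repeat. The members and lists were chosen with earlier results of these data known. Any member could be named, with values for those past the threshold, the catalytic, activator, inhibitor and assembly genes and the extremes of each role; of other lists, genes past the threshold, at most 6 each. The full count for the list of ubiquitin supply and activation is not reported here.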

Additional observations from a re-analysis of the deposited data

Results flagged for a closer look

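In 94 groups of values (47 genes in each of 2 embryo groups), 4 had a library whose gap to its nearest neighbour, relative to the group's range, exceeded Dixon's 95% critical value; chance flags about 1 group in 20. Psmb3 was highest in scramble embryo 10, at 2390 CPM with the next embryo at 1490 CPM. Psmd1 was lowest in Klf5 siRNA embryo 3, at 116 CPM with the next at 138 CPM. Psmd10 was lowest in Klf5 siRNA embryo 1, at 26.7 CPM with the next at 61.3 CPM, and this was the library with Klf5 within the scramble range. A relation to the Klf5 level was not tested. Psmd3 was lowest in Klf5 siRNA embryo 2, at 48.1 CPM with the next at 70.7 CPM.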

How the results depend on the processing

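In embryos 22 members rose. RLE, upper quartile scaling, DESeq2, voom, no filter, the length offset and leaving out doubted pairs of embryos gave 20 to 27 higher and 0 lower, and leaving out 1 embryo gave 20 to 24. A test against a 1.5-fold change gave 13, where 647 of all 12385 genes tested were higher. Total counts gave 13, where the median of all genes moved to -0.43. The calls over all genes then went from 1489 higher and 958 lower to 745 and 2182. The mitochondrial covariate gave 13 higher and 3 lower, where 1230 of all genes were higher and 912 lower. With the replicate block, on 12 embryos, 14 rose (core 12, cap 0), against 16 (core 12, cap 2) in these embryos without the block. Of all 11632 genes tested, 622 rose with the block and 949 without it. Same-numbered embryos correlated by -0.17 to 0.14 and the ESC libraries by -0.21, so the numbers were not taken as pairs. No embryo correlated best with its own number. In ESCs the block gave 0 members. DESeq2 gave 2 lower, no filter 1 and a crossed pairing of the ESC numbers, with 1475 calls over all genes against 155 with the block, 3 lower; leaving out 1 library gave 0 to 1 lower. The all-gene count of ESC calls, 444, ranged from 1 (1.5-fold test, or without GFP library 1) through 169 (without GFP library 2) and 281 (voom) to 870 (no filter), 998 (without Klf5 library 2), 1435 (DESeq2) and 1475 (crossed pairing).

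Medians of log2 fold change in embryos moved for the core (length offset 1.00, total counts 0.88), for the cap (without scramble embryos 5 and 6 0.89, mitochondrial covariate -0.34) and for all members (total counts 0.29, mitochondrial covariate 0.37). Under total counts the cap median was -0.11, and relative to the median of all genes the core stood at 1.31 and the cap at 0.32, against 1.28 and 0.34. Left-out embryos gave 1.21 to 1.35 for the core, 0.21 to 0.60 for the cap and 0.68 to 0.88 for all members. In ESCs left-out libraries gave -0.19 to -0.0164 for the core, -0.11 to -0.00599 for the cap and -0.16 to -0.0123 for all members, the values nearest 0 being those without Klf5 library 2, and total counts -0.0445, 0.0238 and -0.00569, so the sign of the cap median changed. No called member changed direction. The cause of these changes was not tested.

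With the longest transcript, the log2 level was 6.42, 6.27 and 9.98 for the core in GFP ESCs, Klf5 ESCs and Klf5 siRNA embryos (main 6.67, 6.53 and 10.23), 5.99, 5.92 and 6.88 for the cap (main 6.41, 6.34 and 7.30), and 5.37, 5.15, 5.15 and 5.20 for the activators in the 4 groups (main 6.91, 6.69, 6.69 and 6.74); the core minus cap difference in ESCs was 0.43 and 0.35 (main 0.27 and 0.18), and the immunoproteasome share 2.83%, 2.73%, 0.62% and 0.14% in the 4 groups. Total counts gave 6.63 and 9.97 for the core in GFP ESCs and Klf5 siRNA embryos and 6.36 for the cap in GFP ESCs. Precision was limited by 2 libraries per ESC group, and in embryos by a common biological coefficient of variation of 0.739; no detection limit was computed.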
